A study of Mus musculus with 8 samples.

Results

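Integrins are the receptors by which macrophages hold on to other cells and to matrix, and 9 integrin chains were examined together with Vcam1, a ligand of one of the pairs that they form. The chains were Itgam, Itgal, Itgax, Itga4 and Itgav (alpha) and Itgb1, Itgb2, Itgb3 and Itgb5 (beta). These 10 genes were taken by name from the 23761 genes listed in the deposited table, with earlier results of these data known. All 10 were listed. RNA had been sequenced from bone marrow-derived macrophages (BMDMs), which are marrow cells from femur and tibia grown for 6 days in DMEM with medium conditioned by L929 fibroblasts. There were 4 libraries from LysM mice (LysM Cre/Cre) and 4 from K2KO mice (LysM Cre/Cre KLF2 flox/flox), with mice of 3 months on a C57BL/6J background. Cre is driven by the lysozyme M gene, so it acts in myeloid cells, and both groups carry it. The column names and sample descriptions mark all 8 libraries as vehicle, and no other agent is named for them. Libraries are called LysM0 to LysM3 and K2KO0 to K2KO3 after the numbers in the table, which cannot be matched to single mice. Values are FPKM, the number of sequenced fragments scaled by transcript length and by the size of the library. Levels are thus per length. Comparisons between genes are of values as listed, with the limit shown for Gapdh below. FPKM carry no read counts, and the absolute depth is unknown. From the steps between low values, the other libraries had 0.895 to 1.43 times the depth of LysM0. The FPKM of a library summed to between 448235 and 551608.

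An integrin is a pair of one alpha and one beta chain. Itgb2 pairs with Itgal (LFA-1), Itgam (Mac-1, the complement receptor CR3) and Itgax (CR4), and these leukocyte integrins bind ICAMs, fibrinogen and complement fragment iC3b. Itga4 with Itgb1 forms VLA-4, whose ligand on other cells is Vcam1, while Itgav pairs with Itgb3 or Itgb5 to bind vitronectin and, through Mfge8, apoptotic cells. KLF2 is a zinc finger transcription factor of quiescent leukocytes and endothelium, and its family binds CACCC boxes.

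The libraries carried macrophage transcripts, and the 12 macrophage markers looked at summed to 15311 ± 1033 and 11033 ± 960 FPKM (SD, n = 4 each), with 4 of them lower, 1 higher and a median log2 fold change of -0.24. Over all tested genes 8.61% were lower and 9.84% higher by the rule given below, and the median was 0.01. Means in the LysM libraries and in those labelled K2KO were 433 and 439.6 FPKM for Adgre1 (F4/80), 524 and 526 FPKM for Csf1r, the receptor of the growth factor in L929 medium, and 1834 and 1779 FPKM for Cd68. Limma adjusted p were 0.928, 0.989 and 0.714. Lyz2, where the Cre is inserted, was at only 18.6 ± 2.88 and 13.2 ± 1.73 FPKM (SD, n = 4 each). Gapdh, which every cell uses, was listed at 0 to 0.4999 FPKM while Actb was at 1962 to 2949 FPKM, so a value near 0 says only how a gene is listed. The targeted gene did not separate the groups. Klf2 was at 44.1, 52.9, 64.7 and 72.8 FPKM in LysM0 to LysM3 and at 45.5, 41.6, 59.2 and 59.3 FPKM in K2KO0 to K2KO3 (log2 fold change -0.18 with a standard error of 0.17, limma adjusted p = 0.460), and its sign changed after the correction for GC content described below. The ranges overlap, and a value for a whole gene does not show which exons were read. The second group is therefore called the libraries labelled K2KO.

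Of the 9 chains and Vcam1, the ligand alone passed the test between the groups. A gene was taken as differentially expressed at a limma adjusted p under 0.05 (Benjamini-Hochberg over the 10920 genes with a mean of at least 1 FPKM) and an absolute log2 fold change over 0.26 on the log2(FPKM + 0.1) scale, which understates the change of low genes. Of the 10 genes, 1 was differentially expressed, Vcam1, which was higher in the libraries labelled K2KO, where 18.4% of all tested genes were differentially expressed (9.84% higher and 8.61% lower). By limma 0 of the 10 were lower, and 0 were lower at an unadjusted p under 0.05 or by ordinary least squares. The median log2 fold change of the 10 was 0.13, beside 0.01 over all tested genes. All 10 passed the filter on low values. Vcam1 passed it only through the libraries labelled K2KO, so its count is not support for a difference. The paper, from the same experiment, had already named Vcam1 among the genes of a metabolic network that were highest in K2KO macrophages. When genes with a mean of at least 0.1 FPKM were tested, Vcam1 still passed (limma adjusted p = 0.0165, where 12.7% of genes were differentially expressed and 7.18% were higher).

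**Figure D1:**
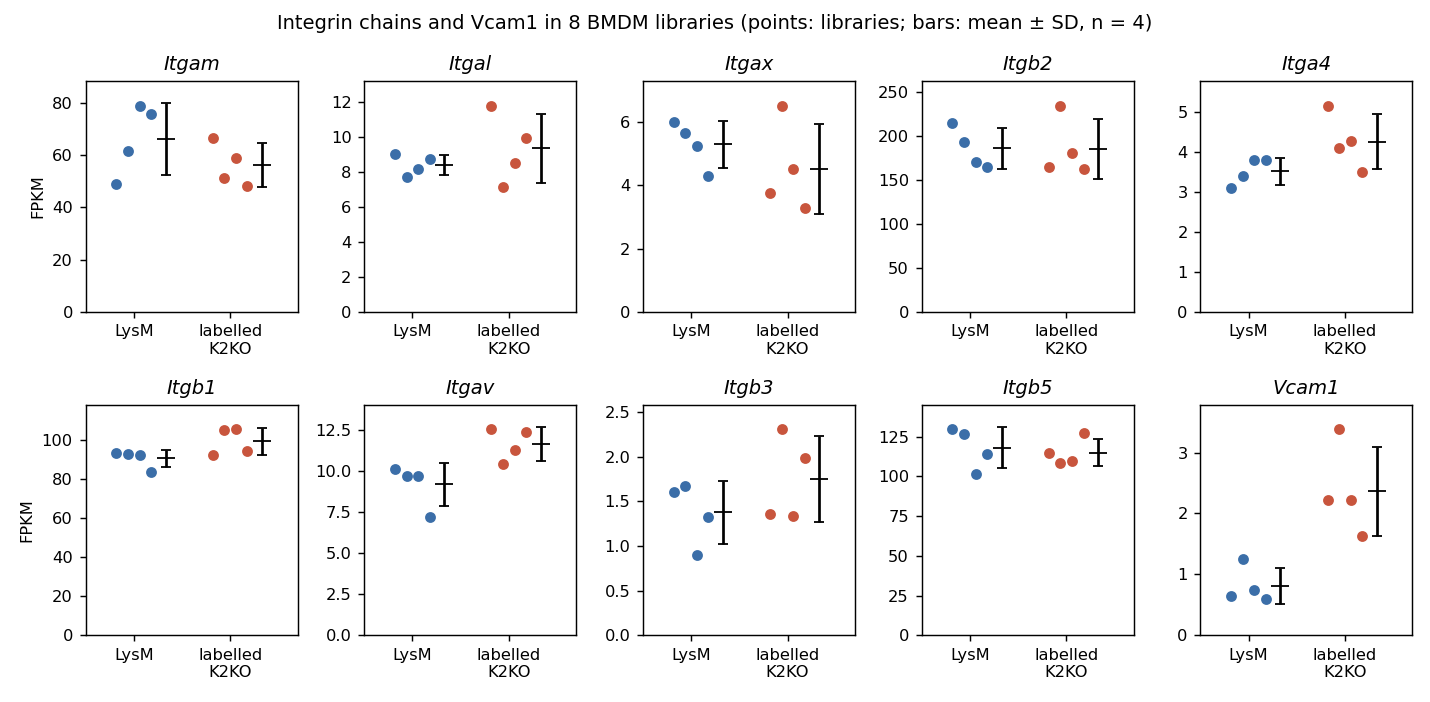
FPKM of each gene (vertical axes from 0) in the LysM libraries (blue) and the libraries labelled K2KO (red), with 1 point per library and black bars for the mean ± SD (n = 4). The groups stand apart for Itgav and Vcam1 and overlap for the other 8 genes.

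The chains spanned a wide range of levels. Itgb2 was the highest in the LysM libraries (186 ± 23.0 FPKM, SD, n = 4), followed by Itgb5 (118 ± 12.8 FPKM), Itgb1 (90.7 ± 4.53 FPKM) and Itgam (66.4 ± 13.8 FPKM). These 4 stood well above Itgav (9.19 ± 1.33 FPKM), Itgal (8.40 ± 0.595 FPKM), Itgax (5.30 ± 0.739 FPKM) and Itga4 (3.52 ± 0.338 FPKM). Itgb3 (1.38 ± 0.353 FPKM) and Vcam1 (0.809 ± 0.3003 FPKM) were the lowest. The ranges of Itgav and Itgal overlapped, as did those of Itgb3 and Vcam1, and the other neighbours in this order stood apart. Beta chains were thus well above their alpha partners, with the exception of Itgb3, which was below Itgav. In the libraries labelled K2KO the order was the same except that Vcam1 (2.37 ± 0.730 FPKM) stood before Itgb3 (1.75 ± 0.481 FPKM), with overlapping ranges, and that the ranges of Itgax and Itga4 overlapped as well.

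**Figure D2:**
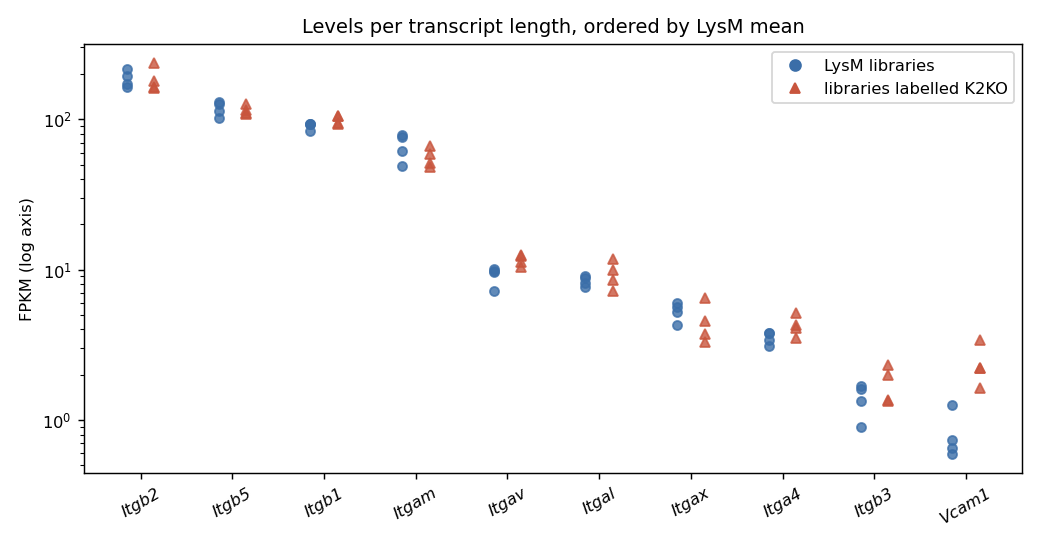
FPKM on a log axis for the 9 chains and Vcam1, ordered by the mean of the LysM libraries, with 1 point per library (blue circles, LysM; red triangles, labelled K2KO). Itgb2, Itgb5, Itgb1 and Itgam have means from 56.3 to 186 FPKM and the rest from 0.809 to 11.7 FPKM, and Vcam1 changes places with Itgb3.

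Among the leukocyte integrins, no chain was differentially expressed. Itgb2, on chromosome 10 from 77530252 to 77565708, was at 215, 194, 171 and 165 FPKM in LysM0 to LysM3 and at 164, 235, 180.4 and 162 FPKM in K2KO0 to K2KO3. The ranges coincide, and the highest and lowest libraries were both labelled K2KO. The log2 fold change was -0.01 with a 95% interval from -0.31 to 0.28 (limma adjusted p = 0.952), and its sign changed under other scalings. Itgam, the alpha chain of Mac-1, lies on chromosome 7 from 128062640 to 128118491. It was at 49.0, 61.7, 79.0 and 75.9 FPKM in LysM0 to LysM3 and at 66.8, 51.2, 59.0 and 48.1 FPKM in K2KO0 to K2KO3. LysM2 and LysM3 were above every library labelled K2KO while LysM0 was near the lowest, and the interval of the log2 fold change ran from -0.59 to 0.14 (estimate -0.22, limma adjusted p = 0.325). A second gene listed under the same name, Gm49368 in GENCODE M21, overlaps Itgam on the same strand from 128062683 to 128128160. It was listed at no more than 0.365 FPKM in any library, and reads of the shared exons could have been given to either.

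Itgax (CD11c) and Itgal (CD11a) are also on chromosome 7, from 128129547 to 128150657 and from 127296260 to 127335138. Itgax was at 6.01, 5.65, 5.25 and 4.29 FPKM in LysM0 to LysM3 and at 3.76, 6.52, 4.53 and 3.29 FPKM in K2KO0 to K2KO3. K2KO1 was the highest of the 8 libraries and K2KO3 the lowest, and the log2 fold change of -0.26 had an interval from -0.70 to 0.18 (limma adjusted p = 0.351). Itgal was at 9.02, 7.70, 8.14 and 8.75 FPKM against 11.8, 7.16, 8.49 and 9.94 FPKM. Its values labelled K2KO enclosed those of the LysM libraries (log2 fold change 0.13, interval -0.18 to 0.44, limma adjusted p = 0.510). Itgam made up most of the alpha chain transcript for Itgb2, with 76.5% to 85.5% of the summed FPKM of Itgam, Itgal and Itgax. Itgb2 exceeded that sum by 1.85 to 3.62 times. The highest of these ratios was in K2KO1 and the lowest were in LysM2 and LysM3.

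Of VLA-4 and its ligand, Vcam1 rose and neither receptor chain passed the test. Vcam1 lies on the minus strand of chromosome 3 from 116109949 to 116129688. It was at 0.650, 1.25, 0.738 and 0.597 FPKM in LysM0 to LysM3 and at 2.23, 3.38, 2.22 and 1.64 FPKM in K2KO0 to K2KO3. Every library labelled K2KO was above every LysM library, with LysM1 and K2KO3 the closest. The mean was 2.92 times that of the LysM libraries (log2 fold change 1.45 with a standard error of 0.27 and an interval from 0.85 to 2.04, limma adjusted p = 0.0126). It was not differentially expressed without LysM3 (limma adjusted p = 0.0517) or with quantile normalization between libraries (limma adjusted p = 0.0724), where the log2 fold change was 1.88. The antisense gene Gm43109 overlaps Vcam1 on the other strand. The library kit keeps the strand, but whether the counting used it is not given in the sources used here.

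Itga4, on chromosome 2 from 79255426 to 79333123, was at 3.10, 3.39, 3.79 and 3.79 FPKM in LysM0 to LysM3 and at 5.15, 4.09, 4.27 and 3.51 FPKM in K2KO0 to K2KO3. Of the libraries labelled K2KO, 3 were above all LysM libraries and K2KO3 fell among them (log2 fold change 0.26, interval -0.01 to 0.53, limma adjusted p = 0.145). It passed the test when K2KO3 was left out (limma adjusted p = 0.0482). Itgb1, the beta chain shared with many alpha chains, lies on chromosome 8 from 128685654 to 128733200. It was at 93.3, 93.2, 92.5 and 83.9 FPKM against 92.7, 105, 106 and 94.5 FPKM, with a log2 fold change of 0.13 (interval -0.02 to 0.29, limma adjusted p = 0.187). LysM3 was well below the other LysM libraries, and K2KO0 fell among them. Itga4 exceeded Vcam1 in all 8 libraries, by 2.71 to 6.34 times in the LysM libraries and by 1.21 to 2.31 times in those labelled K2KO, so the receptor chain and the ligand came closer in level.

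The promoters of the 2 VLA-4 chains are shown because KLF factors bind CACCC boxes and because these chains did not pass the test while their ligand rose. RefSeq promoters (250 bases before to 50 after the start, GRCm38.p6) were matched for 6 of the 10 genes, Itga4, Itgav, Itgam, Itgax, Itgb1 and Itgb5. Those of Itgal, Itgb2, Itgb3 and Vcam1 were not matched. CACCC on the plus strand or its complement GGGTG is in capitals, chr2:79255176-79255475 for Itga4 and chr8:128685404-128685703 for Itgb1, both on the plus strand and printed 5′ to 3′.
Itga4: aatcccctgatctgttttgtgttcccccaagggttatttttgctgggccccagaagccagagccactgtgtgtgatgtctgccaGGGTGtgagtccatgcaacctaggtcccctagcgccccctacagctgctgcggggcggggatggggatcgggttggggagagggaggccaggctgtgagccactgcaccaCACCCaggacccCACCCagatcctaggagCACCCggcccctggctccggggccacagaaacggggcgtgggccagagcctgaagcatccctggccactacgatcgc
Itgb1: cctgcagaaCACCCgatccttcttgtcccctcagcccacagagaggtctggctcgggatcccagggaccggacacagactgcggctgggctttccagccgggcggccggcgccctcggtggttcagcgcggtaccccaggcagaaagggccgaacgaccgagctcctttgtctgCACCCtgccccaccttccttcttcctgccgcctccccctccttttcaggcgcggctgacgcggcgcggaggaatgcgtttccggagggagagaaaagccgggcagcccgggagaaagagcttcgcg
The Itga4 promoter held 4 matches, of which 3 read CACCC as printed, and at least 4 were found in 3.10% of all 32851 promoters in the table. The Itgb1 promoter held 2, as 25.7% of promoters did or exceeded. Itgam held 3 matches, Itgav and Itgb5 held 1 each and Itgax none, and 57.5% of all promoters had at least 1. A match is only a run of letters and not a binding site.

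Of the vitronectin receptor chains, Itgav was the one whose groups stood apart. It lies on chromosome 2 from 83724397 to 83806916 and was at 10.1, 9.70, 9.72 and 7.22 FPKM in LysM0 to LysM3 and at 12.5, 10.4, 11.3 and 12.4 FPKM in K2KO0 to K2KO3. The groups did not overlap, with LysM0 and K2KO1 the closest, and LysM3 was far below the other LysM libraries. The log2 fold change of 0.35 (interval 0.09 to 0.60) missed the threshold (limma adjusted p = 0.0552). Itgav was called in 1 of the 12 other settings, upper-quartile scaling (limma adjusted p = 0.0443), and in 1 of the 8 fits with a library left out, that without LysM0 (limma adjusted p = 0.0482). Without LysM3 its log2 fold change was 0.24 (limma adjusted p = 0.108). Groups that do not overlap were thus seen for 2 of the 10 genes, Itgav and Vcam1, both higher, beside 23.1% of all tested genes (12.9% higher and 10.2% lower).

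Itgb5, the partner of Itgav with the higher listed level here, lies on chromosome 16 from 33829665 to 33949338. It was at 129.6, 127, 102 and 114 FPKM in LysM0 to LysM3 and at 115, 108, 109 and 127 FPKM in K2KO0 to K2KO3. The ranges coincide (log2 fold change -0.03, interval -0.24 to 0.17, limma adjusted p = 0.807), and the sign changed under other scalings. Itgb3, on chromosome 11 from 104608000 to 104670476, is known from osteoclasts and platelets. It was at 1.60, 1.68, 0.899 and 1.33 FPKM against 1.36, 2.31, 1.34 and 1.99 FPKM (log2 fold change 0.32, interval -0.22 to 0.86, limma adjusted p = 0.347). Only K2KO1 and K2KO3 were above the LysM range, and LysM2 was the lowest library. Itgb5 exceeded Itgb3 by 47.0 to 113 times and Itgav by 9.17 to 15.8 times. For the second ratio the groups did not overlap, at 10.5 to 15.8 in the LysM libraries and 9.17 to 10.4 in those labelled K2KO. LysM2 (10.47) and K2KO1 (10.41) nearly met, and the ratio was not tested. It carries the values of Itgav, which was not differentially expressed. After the GC and length correction described below, the log2 fold changes were 0.14 for Itgav and 0.04 for Itgb5.

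Base composition differed among the 10 genes. Transcripts of Vcam1 (40.1% GC), Itga4 (41.1%), Itgav (43.5%), Itgb1 (44.8%) and Itgam (48.9%) lie below the median of 49.7% over all tested genes, and those of the other 5 lie between 51.6% and 57.0%. When the trend of values with GC and transcript length was taken out of every library, this brought Itga4 from 0.26 to 0.0052 in log2 fold change (limma adjusted p = 0.982), Itgb1 from 0.13 to 0.02 (limma adjusted p = 0.850) and Itgav from 0.35 to 0.14 (limma adjusted p = 0.421). Vcam1 was at 1.24 (interval 0.67 to 1.82, limma adjusted p = 0.0242) and was still differentially expressed, as were 10.1% of all tested genes. The median of the 10 genes became 0.03, beside -0.01 over all tested genes. The part of GC content in the uncorrected values was not tested.

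**Figure D3:**
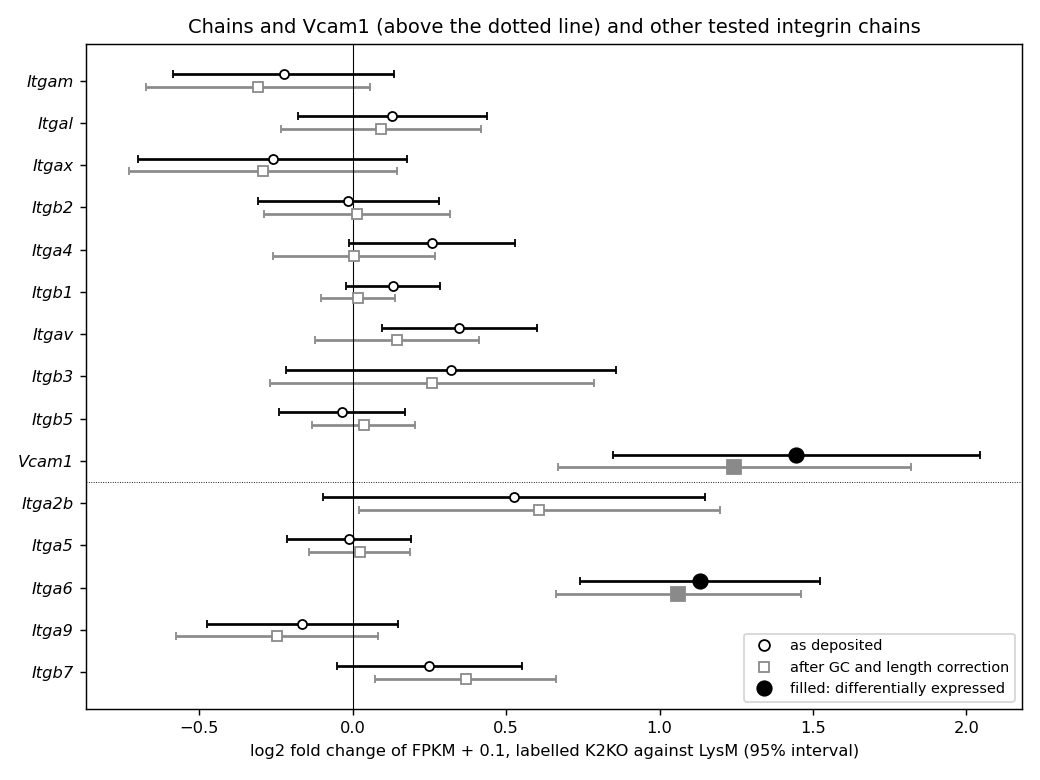
Log2 fold change of FPKM + 0.1 (horizontal axis, labelled K2KO against LysM, with 95% intervals) for the 10 genes above the dotted line and 5 other tested integrin chains below it. Black circles are deposited values and grey squares values after the GC and length correction, and filled symbols mark Vcam1 and Itga6, the 2 that were differentially expressed in both.

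Of 19 further integrin genes, 18 were listed and 5 passed the filter, and 1 of these was differentially expressed, beside 18.4% of all tested genes. Itga6, which pairs with Itgb1 or Itgb4 as a laminin receptor, was at 3.63, 2.87, 2.12 and 2.53 FPKM in LysM0 to LysM3 and at 7.67, 6.43, 5.71 and 4.97 FPKM in K2KO0 to K2KO3. The groups stood apart and the mean was 2.22 times that of the LysM libraries (log2 fold change 1.13 with a standard error of 0.17, limma adjusted p = 0.00839). Itga6 was differentially expressed in all 12 other settings and in all 8 fits without one library. Its partner Itgb4 was at or under 0.1 FPKM on average. Itga5, the alpha chain of the fibronectin receptor and the highest of the 18 at 27.6 ± 2.93 and 27.3 ± 2.15 FPKM (SD, n = 4 each), had a log2 fold change of -0.01 (interval -0.21 to 0.19), whose sign changed under other scalings. Itgb7, the other partner of Itga4, was at 15.1 ± 2.44 and 17.98 ± 2.42 FPKM (limma adjusted p = 0.197). Itgb7 was differentially expressed after the GC and length correction only together with a block on the column number. Itga2b, a platelet chain, and Itga9 were under 2 FPKM on average in both groups, with limma adjusted p of 0.189 and 0.409. The integrin of epithelial T cells (Itgae) and Itgad were under 0.2 FPKM on average.

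The 3 genes whose FPKM over the 8 libraries were most like those of Vcam1 were Ddx19a (Pearson's r = 0.98 in log2(FPKM + 0.1)), Timm21 (r = 0.97) and Zfp146 (r = 0.97). These are descriptions over 8 libraries that share the genotype split, and none of the 3 encodes an adhesion molecule.

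Among proteins that switch integrins on from inside the cell or hold them off, no gene passed both limits before the GC and length correction. Of 24 genes in this list, 19 were tested and 0 were differentially expressed by limma (18.4% of all tested genes were), or by ordinary least squares, while 1 was higher and 6 were lower at an unadjusted p under 0.05, as were 4126 of the 10920 tested genes in either direction. The median log2 fold change was -0.14, beside 0.01 over all tested genes. The list mixes activators and inhibitors, so neither its median nor its counts give a direction for activation. Fermt3 (kindlin-3), which binds the tail of beta chains, was at 144 ± 5.01 and 124 ± 5.21 FPKM, and the inhibitory adaptor Dok1 at 66.6 ± 4.47 and 56.6 ± 1.09 FPKM. Both had a limma adjusted p under 0.05 (0.0336 and 0.0302), but log2 fold changes of -0.21 and -0.23 that fell short of the required size. After the correction 2 genes of the list were lower, where 10.1% of all tested genes were differentially expressed. They were the GTPase Rap1b, its most abundant member (226 and 196 FPKM, log2 fold change -0.35, limma adjusted p = 0.0340), and Rasgrp3, an exchange factor for Rap and Ras (-0.36, limma adjusted p = 0.0442). Without it their log2 fold changes were -0.19 and -0.21, with limma adjusted p of 0.221 and 0.192. Tln1 (talin), the other activator at the beta tail, was at 60.4 and 52.5 FPKM (limma adjusted p = 0.0743).

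Adaptors that tie integrins to actin moved in both directions. Of 26 tested genes, 5 were higher and 1 was lower, beside 9.84% and 8.61% of all tested genes, with a median of 0.07. Parvg (gamma-parvin), a leukocyte partner of integrin-linked kinase, rose from 2.05 ± 0.428 to 3.66 ± 0.253 FPKM (log2 fold change 0.83, limma adjusted p = 0.0115). Lims1 (PINCH-1), of the same complex, rose by 0.34 (limma adjusted p = 0.0172), while Ilk itself was at 73.9 and 71.7 FPKM (limma adjusted p = 0.619). Crkl, an adaptor of focal adhesions, rose by 0.78 (limma adjusted p = 0.0239), although its groups overlapped. Vasp, which promotes actin filament growth, fell from 98.4 ± 2.36 to 76.7 ± 4.97 FPKM (log2 fold change -0.36, limma adjusted p = 0.0112). After the GC and length correction 3 genes of the list were higher and 1 was lower, beside 10.1% of all tested genes called. Parvg and Crkl kept the call and Lims1 lost it (limma adjusted p = 0.110). Vasp kept a limma adjusted p of 0.0340, but its log2 fold change of -0.22 fell short of the required size. The lower gene was Nedd9 (log2 fold change -0.66, limma adjusted p = 0.0318, against -0.54 and 0.0503 without the correction). Parvg and Vasp held without any one library. Lims1 was lost without LysM1, LysM3, K2KO1 or K2KO2, and Crkl in all such fits but those without LysM0 or K2KO3 (7.32, 6.90, 5.74 and 4.07 FPKM in K2KO0 to K2KO3, against 2.91 to 4.30 FPKM).

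**Figure D4:**
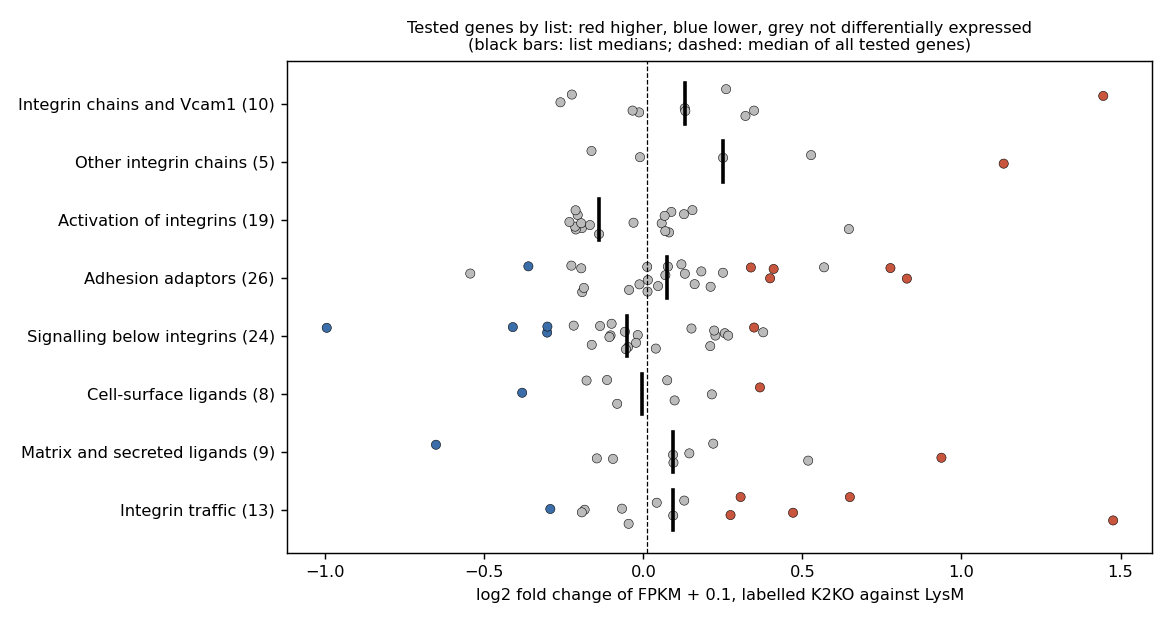
Log2 fold changes (horizontal axis, labelled K2KO against LysM) of the tested genes in 8 lists, with 1 point per gene, red for higher, blue for lower and grey for not differentially expressed. Black bars are list medians and the dashed line the median of all tested genes (0.01), and the list medians lie between -0.14 and 0.25.

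Below the integrins, Fgr, a Src family kinase of myeloid cells, was lower. In the signalling list 24 genes were tested, 1 was higher and 4 were lower, close to the 18.4% of all tested genes that were differentially expressed, and the median was -0.05. Fgr was at 3.00, 3.21, 3.81 and 3.78 FPKM in LysM0 to LysM3 and at 1.61, 2.18, 1.64 and 1.36 FPKM in K2KO0 to K2KO3, 0.491 times the level in the mean and with no overlap (log2 fold change -0.995 with a standard error of 0.15, limma adjusted p = 0.00772). Lyn, of the same family, was at 51.1 and 47.5 FPKM (limma adjusted p = 0.327). Fcer1g, an ITAM adaptor that relays beta2 signals, had a log2 fold change of -0.41 (limma adjusted p = 0.0305), and Syk, the kinase it recruits, had a log2 fold change of -0.02 (limma adjusted p = 0.872). The phosphatase Ptpn6 (SHP-1) was also lower (log2 fold change -0.30, limma adjusted p = 0.0311), and Ptpn12, a phosphatase of focal adhesion proteins, rose by 0.35 (limma adjusted p = 0.0250). After the GC and length correction Fgr and Fcer1g were still lower, and Ptpn6 and Ptpn12 were not differentially expressed. With quantile normalization the log2 fold change of Fcer1g was -0.050 (limma adjusted p = 0.558), and it was called in 6 of the 12 other settings. Its call was lost, among others, at the 0.1 FPKM filter (limma adjusted p = 0.0545) and after the correction with the replicate block (limma adjusted p = 0.0516). Fgr held without any one library. Ptpn12 was lost without LysM1, LysM3, K2KO0, K2KO1 or K2KO2, and Fcer1g in all such fits but those without LysM0 or K2KO3.

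Of the other ligands, 2 of 8 tested on cell surfaces and 2 of 9 tested in matrix or secreted were differentially expressed, 1 in each direction in both lists, beside 9.84% higher and 8.61% lower among all tested genes. Icam1, the ligand of LFA-1 and Mac-1, was at 11.5 and 13.4 FPKM (limma adjusted p = 0.140) and Icam2 at 9.38 and 8.52 FPKM (limma adjusted p = 0.610). Of 8 tested ligands on cell surfaces, Adam9 rose from 20.7 ± 1.34 to 26.7 ± 1.42 FPKM and Adam15 fell from 107 ± 4.66 to 82.5 ± 4.58 FPKM. These disintegrin proteases had limma adjusted p of 0.0123 and 0.0105. Of 9 tested matrix and secreted ligands, Thbs1 (thrombospondin 1) was at 37.6, 58.7, 30.9 and 45.3 FPKM against 104, 50.1, 92.5 and 86.7 FPKM (log2 fold change 0.94, limma adjusted p = 0.0320). K2KO1, the library with the most Vcam1, had less Thbs1 than LysM1. Tgfbi fell from 24.6 ± 4.17 to 15.9 ± 3.98 FPKM (limma adjusted p = 0.0449). Spp1 (osteopontin), a ligand of Itgav pairs and the most abundant of the list, was at 1012 and 1179 FPKM (limma adjusted p = 0.166), and Mfge8 at 156 and 171 FPKM (limma adjusted p = 0.550). Fn1 (fibronectin), a ligand of VLA-4 and of Itga5 with Itgb1, was under the 1 FPKM filter, at 1.02, 2.15, 1.49 and 0.9498 FPKM in LysM0 to LysM3 and at 0.740, 0.468, 0.412 and 0.495 FPKM in K2KO0 to K2KO3. Every library labelled K2KO was lower, and among genes with a mean of at least 0.1 FPKM Fn1 was differentially expressed (log2 fold change -1.21, limma adjusted p = 0.0256). Thbs1 and Tgfbi each lost the call after the GC and length correction, with log2 fold changes of 0.84 (limma adjusted p = 0.0658) and -0.62 (limma adjusted p = 0.0678), and whenever one library was left out, except LysM1 or K2KO1 for Thbs1 and LysM0 or K2KO3 for Tgfbi. Adam9 and Adam15 kept it in all of these fits.

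Of 13 tested genes of integrin traffic, 5 were higher and 1 was lower, beside 9.84% and 8.61% of all tested genes, and 2 were higher and 1 was lower after the GC and length correction, where 10.1% of all tested genes were differentially expressed. Rab4a, a GTPase of fast recycling that carries Itgav with Itgb3, rose from 5.26 ± 2.48 to 13.7 ± 1.10 FPKM (log2 fold change 1.48 with a standard error of 0.28, limma adjusted p = 0.0133), and the LysM libraries ranged from 3.02 to 8.35 FPKM. Rab5a, of early endosomes, rose by 0.65 (limma adjusted p = 0.0159), and Vps35, of the retromer, by 0.47 (limma adjusted p = 0.0129). Epn1 (epsin 1), of clathrin-coated pits, fell by 0.29 (limma adjusted p = 0.0259). Without LysM3 none of these 4 was differentially expressed. Rab5a was also lost without K2KO0 or K2KO2, and Epn1 without LysM1, K2KO0, K2KO1 or K2KO2. After the GC and length correction Rab4a and Rab5a were and Vps35 and Epn1 were not. The lower gene after the correction was Rab11a, of recycling endosomes (log2 fold change -0.33, limma adjusted p = 0.0248, against -0.18 and 0.145 without it).

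Transcripts of other cell types were looked for because Vcam1 is abundant in endothelium and marrow stroma. In bulk RNA, more cells of a type and more RNA per cell cannot be told apart. The 9 fibroblast and stromal markers were all listed under 1 FPKM on average, and Dcn was the most abundant. Their summed level was 0.644, 1.48, 0.369 and 0.295 FPKM in LysM0 to LysM3 and 3.66, 1.03, 0.6996 and 2.09 FPKM in K2KO0 to K2KO3. The sum was highest in K2KO0 and K2KO3 and Vcam1 in K2KO1 and K2KO0. The part of stromal cells in the result was not tested. Of these markers 0 passed the filter at 1 FPKM, and at 0.1 FPKM Col1a1 and Col1a2 had log2 fold changes of 1.16 each (limma adjusted p = 0.0828 and 0.132). Lum was listed at 0 in 4 libraries.

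**Figure D5:**
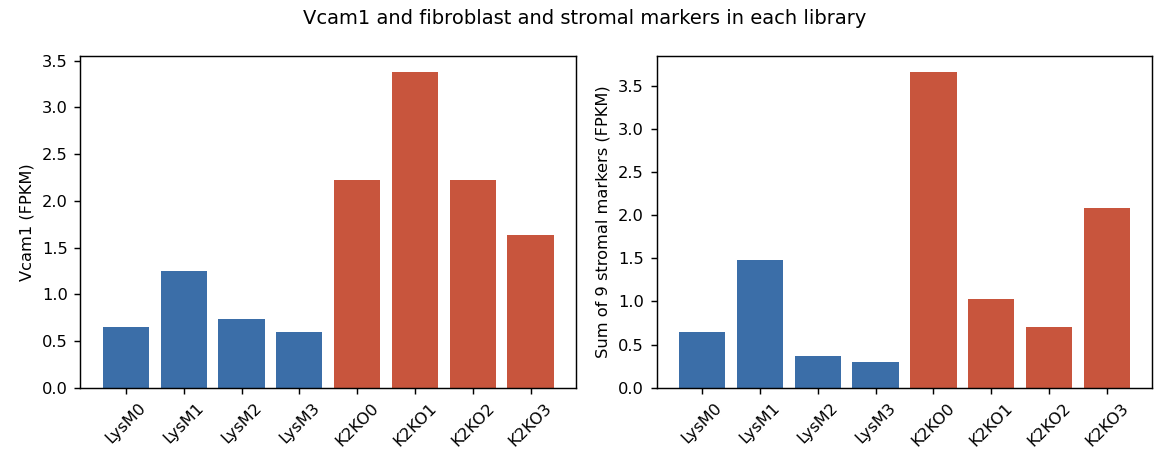
FPKM of Vcam1 (left) and the summed FPKM of 9 fibroblast and stromal markers (right) in each of the 8 libraries, as bars from 0 (blue, LysM; red, labelled K2KO). Vcam1 is highest in K2KO1 (3.38 FPKM) and the marker sum in K2KO0 (3.66 FPKM), and LysM1 is the highest LysM library in both.

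The 7 endothelial markers summed to 4.06 ± 0.685 and 4.69 ± 0.665 FPKM (SD, n = 4 each), with Kdr the most abundant, 2 tested and none differentially expressed by limma or ordinary least squares, or at an unadjusted p under 0.05. Cdh5, which defines endothelium, was under 0.1 FPKM on average in both groups. The 12 neutrophil markers, cells that also carry Itgam and Itgb2, summed to 282 ± 58.2 and 285 ± 58.7 FPKM, with S100a9 the most abundant, and Camp alone of 10 tested was lower (limma adjusted p = 0.0178), while Ly6g was under 0.3 FPKM on average. The 9 megakaryocyte and platelet markers summed to 279 ± 89.9 and 307 ± 93.5 FPKM, nearly all of it Pf4, which macrophages also express, and Ppbp alone of 4 tested was higher (limma adjusted p = 0.0291). Camp and Ppbp were not differentially expressed by ordinary least squares, and Ppbp also lost its call after the GC and length correction. Dendritic markers, which bear on Itgax, summed to 2.68 ± 1.15 and 4.17 ± 1.38 FPKM, led by Ccr7, and the 1 tested was not differentially expressed (limma adjusted p = 0.205).

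The 8 T and NK cell markers summed to 2.48 ± 0.414 and 6.15 ± 0.368 FPKM. Most of it was Cd4, which rose from 1.92 to 5.15 FPKM (log2 fold change 1.38, limma adjusted p = 4.34e-04), while Cd3e, Cd3d and Cd3g were at no more than 0.134 FPKM on average. B cell markers summed to 3.57 ± 1.39 and 4.64 ± 0.958 FPKM, led by Cd79b, mast cell and basophil markers to 0.580 ± 0.162 and 1.05 ± 0.332 FPKM, led by Gata2, and erythroid markers to 0.804 ± 0.551 and 1.22 ± 0.492 FPKM, led by Hba-a1. None of these 3 lists held a differentially expressed gene, at an unadjusted p under 0.05 or by ordinary least squares either, and only 1 of their genes was tested. Tpsb2 and Hbb-bt were listed at 0 in all 8 libraries. Among the macrophage markers, the complement genes C1qa, C1qb and C1qc and Lyz2 were lower and Mertk, an efferocytosis receptor, was higher. After the GC and length correction 4 macrophage markers were lower and 0 were higher, so Mertk lost its call. Over all tested genes 10.1% were then differentially expressed. C1qb was the most abundant, and C1qa, at 2685 and 1338 FPKM, changed most (log2 fold change -1.01, limma adjusted p = 0.00772). The part of these shifts in the integrin values was not tested.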

How the data were processed

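RNA was sequenced from BMDMs of 4 LysM and 4 K2KO mice. The authors deposited FPKM for 23761 genes, 1 column per library without pooling, computed with Cufflinks on mm10. The paper names TopHat2 as the aligner and the submitters' processing notes name STAR and Cuffdiff, and versions are not given in the sources used here. The labels and the methods also name different RNA isolation kits. Columns carry the genotype and a number from 0 to 3, not the mouse. Positions, transcript length and GC content came from GENCODE M21 (GRCm38), which matched 23645 identifiers. Fits used limma 3.58.1 in R 4.3.3 (lmFit, and eBayes with an intensity trend) on log2(FPKM + 0.1) for genes with a mean of at least 1 FPKM, with no covariate, tested on simulated data. The intervals are at 95%. The alternatives were pseudocounts of 1 and 0.01, a minimum of 0.1 FPKM or none, quantile and upper-quartile scaling, no trend, ordinary least squares, an absolute log2 fold change over 1, a replicate block, a local regression on GC content and transcript length (span 0.3), alone and with the block, and each library left out. The 10 genes, the lists and the GC correction were chosen with earlier results of these data known. Named are the 10 genes, Klf2, the other tested integrins, the called genes of each list with the lowest adjusted p (at most 3 in each direction), markers, and the 3 genes most correlated with a called member. Fermt3, Dok1, Tln1, Rap1b, Rasgrp3, Rab11a, Nedd9, Fn1, Ilk, Lyn, Syk, Ptpn6, Icam1, Icam2, Spp1, Mfge8, Itgae, Itgad, Itgb4 and Gm49368 were named after their values were seen. So were Gm43109, Cdh5, Col1a1, Col1a2 and the other markers singled out. One called gene of the signalling list is not reported here. P-values measure the spread between libraries, which came from 1 mouse each by the study's account.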

Additional observations from a re-analysis of the deposited data

Results flagged for a closer look

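In 3 of the 64 gene and genotype groups, each of 4 libraries, a single library lay further from its nearest neighbour, relative to the range, than Dixon's critical value for 4 values. Chance alone would give about 3.2 (1 in 20). LysM3 was low for Itgb1 (83.9 FPKM, with the others from 92.5 to 93.3 FPKM) and for Itgav (7.22 FPKM, with the others from 9.70 to 10.1 FPKM). K2KO3 was low for Rab5a (14.4 FPKM, with the others from 19.5 to 20.5 FPKM).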

How the results depend on the processing

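Vcam1 was higher in all 12 other settings and all 8 fits without one library, with log2 fold changes from 0.88 to 1.88, and was called in 11 and 7 of them. The number of the 10 genes called higher was 0 with quantile normalization and 2 with upper-quartile scaling (Itgav added), and 0 to 2 with one library left out (0 without LysM3, 2 without LysM0 or K2KO3). None was called lower in any setting. Over all genes 2014 were differentially expressed, and this became 1090 without a filter, 746 by ordinary least squares, 110 at an absolute log2 fold change over 1, 1098 after the GC and length correction and 868 with that correction and the replicate block. Without one library it ranged from 337 (LysM3) to 2837 (K2KO3), and it was 496 without K2KO2, 706 without K2KO0, 726 without K2KO1, 736 without LysM1 and 1030 without LysM2. The causes were not tested. The share of calls that were higher, 53.3%, became 64.8% with upper-quartile scaling, where the median of all tested genes was 0.06. It became 44.2% after the GC and length correction and 45.5% with that correction and the replicate block, so most calls were then lower. The replicate block on the column number gave 2057 genes and kept 1 of the 10 higher. Libraries of the same number did not deviate together (r from -0.07 to 0.07), so the numbers were not taken as pairs. The sign changed for 4 genes that were not called. Itgb2 (-0.01) was 0.15 with quantile normalization, 0.033 with upper-quartile scaling and 0.015 after the correction, with or without the block, and -0.13 to 0.059 with one library left out. Itgb5 (-0.03) was 0.11, 0.012 and 0.037, and -0.10 to 0.013. Itga5 (-0.01) was 0.033, 0.035 and 0.023, and -0.065 to 0.043. Klf2 (-0.18) was 0.039 after the correction, with or without the block, and -0.31 to -0.07 with one library left out. FPKM without counts give no limit for genes listed near 0.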
